A study of Homo sapiens with 18 samples.

Results

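Human stem cells that had been turned into anterior or posterior neural ectoderm were both moved into the same forebrain medium, and their messenger RNA was compared at day 4. The comparison holds 4 of the 18 libraries of the series, chosen by group label: 2 libraries of posterior origin (pNE_T) and 2 of anterior origin (aNE_T), made from 2 biological replicates of each. Of the 37550 rows of the expression table, 14635 genes had at least 1 TPM (a transcript abundance scaled by length and to the same total in each library) in at least 2 of these 4 libraries and were tested. All cells came from H1, an established wild-type human pluripotent stem cell line, and p-values therefore measure the spread between cultures of 1 line. Every culture spent day 1 in a definitive ectoderm medium with A8301 at 1 µM and LDN193189 at 100 nM, which block TGF-beta and BMP receptors, trametinib at 250 nM, which blocks the kinase MEK, and C59 at 1 µM, which blocks WNT secretion. On day 2 the cells were replated. Those to become anterior neural ectoderm (aNE) received A8301, LDN193189, thiazovivin and C59 at 1 µM. Those to become posterior neural ectoderm (pNE) received A8301, LDN193189, thiazovivin, XAV939 at 1 µM, which blocks tankyrase and so lowers WNT signalling inside the cell, the growth factor FGF2 at 20 ng/mL and TTNPB at 50 nM, an agonist of retinoic acid receptors. Both then received a forebrain medium that held XAV939 at 1 µM, LDN193189 at 100 nM and FGF2 at 20 ng/mL on day 3; its make-up after day 3 is not given in the sources used here. Cells for the anterior arm were plated at 75000 per cm2 and cells for the posterior arm at 150000 per cm2, so origin and plating density cannot be told apart at day 4. Values are set beside aNE and pNE sampled at day 2, both plated at 37500 per cm2, and beside cells of either origin moved at day 2 into midbrain medium (aNE_M, pNE_M) or hindbrain medium (aNE_H, pNE_H), plated like the forebrain arms and also sampled at day 4. The make-up of those 2 media is not given in the sources used here, and each of these groups holds 2 libraries.

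The vertebrate neural plate is divided along the head-to-tail axis by transcription factors that are switched on in adjoining territories. The front of the plate, which forms the forebrain and the eyes, is marked by homeobox and zinc finger factors such as SIX3, OTX2, FEZF1 and RAX, while the hindbrain and spinal cord are marked by HOX genes, whose order along the chromosome follows the order of their domains in the body. Retinoic acid is a posteriorising signal: its receptors switch on HOX genes of the first groups and also the genes that bind, store and break down retinoids, which makes the latter useful as readouts of the pathway.

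The promoters of 3 genes described below are shown because they hold the motifs through which retinoic acid receptors and HOX proteins bind DNA. They are given 5′ to 3′ on the strand of the gene, as the 200 bases before a RefSeq transcription start (GRCh38.p14), with the matched motif in capitals. RARB encodes a retinoic acid receptor, and the stretch at chr3:25428063-25428262 (plus strand, 1 of 4 listed starts) holds a DR5 retinoic acid response element from 53 to 37 bases before the start. CYP26A1 encodes an enzyme that breaks down retinoic acid, and the stretch at chr10:93073693-93073892 (plus strand, 1 of 2 listed starts) holds the same element on the other strand, from 90 to 74 bases before the start. HOXB1 is a HOX gene of the first group, and the stretch at chr17:48531012-48531211 (minus strand, its 1 listed start) holds TGATNNAT, a motif bound by pairs of PBX and HOX proteins, from 125 to 118 bases before the start.
RARB: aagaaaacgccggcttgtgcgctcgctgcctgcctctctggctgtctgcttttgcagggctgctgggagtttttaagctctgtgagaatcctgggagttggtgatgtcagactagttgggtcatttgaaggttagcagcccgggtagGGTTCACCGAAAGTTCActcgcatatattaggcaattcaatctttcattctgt
CYP26A1: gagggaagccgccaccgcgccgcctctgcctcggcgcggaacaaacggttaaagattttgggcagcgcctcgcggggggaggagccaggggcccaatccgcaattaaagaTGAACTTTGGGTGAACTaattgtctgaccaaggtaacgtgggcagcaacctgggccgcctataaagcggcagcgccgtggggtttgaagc
HOXB1: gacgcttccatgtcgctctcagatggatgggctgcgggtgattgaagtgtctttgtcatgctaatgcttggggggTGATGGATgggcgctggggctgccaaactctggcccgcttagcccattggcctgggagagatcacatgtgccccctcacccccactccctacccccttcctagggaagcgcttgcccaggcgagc
Both strands were searched in 35116 RefSeq windows of 300 bases. The DR5 element was in 31 of them (0.0883%), which belong to 29 genes. Of these, 11 were tested and 3 were higher in pNE_T, namely RARB, CYP26A1 and BATF2, with none lower. RARB reached 1 TPM in pNE_T only, and RARB and CYP26A1 were picked for display with earlier results known. The count of 3 is therefore no test of the element. The call of BATF2 was lost without the second pNE_T library, where its log2 difference was 0.85. TGATNNAT was in 2598 windows (7.40%), and its 573 tested genes included 53 that were higher (9.25%) and 45 that were lower (7.85%). Of the 10893 tested genes with any window, 4.28% were higher and 4.35% were lower. A match describes the letters only and does not show that a factor binds there.

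The 4 libraries were alike in overall make-up. They held 19450 to 21235 genes above 0 TPM and 14134 to 14384 genes at or above 1 TPM. Mitochondrial genes took 2.29% to 3.04% of TPM, and 6.35% to 6.63% went to the top 10 genes of each library. Pearson's r of log2(TPM + 1) across tested genes, which are not independent, was 0.988 within aNE_T, 0.982 within pNE_T and 0.933 to 0.937 between the groups. TPM keeps no record of read number, so the depth behind each value is unknown. Neural progenitor markers were partly shared: SOX2, a factor of these cells, had 457 and 453 TPM in the aNE_T libraries and 239 and 234 TPM in the pNE_T libraries, and NES, an intermediate filament, had 633 and 597 TPM and 608 and 649 TPM, while SOX1, SOX3 and FABP7 were lower in pNE_T. Forebrain markers did not point one way in pNE_T. OTX2, a factor of the forebrain and midbrain, was under 1 TPM in both libraries, while SIX3, at 38.0 and 39.8 TPM, and FEZF2, at 17.3 and 12.1 TPM, were present at lower levels than in aNE_T, and PAX6 and VAX2 were present too. That group is therefore called by its origin and medium, not as forebrain.

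Cells of the 2 origins differed in many genes after the shared forebrain medium. A gene was called when its log2 difference, taken as pNE_T minus aNE_T on log2(TPM + 1), was at least 1 in size with an adjusted p under 0.05 (limma, 2 libraries per group, variance pooled over all 18 libraries). By this rule 1317 of 14635 genes (9.0%) were called, 642 higher (4.39%) and 675 lower (4.61%) in pNE_T. The groups did not overlap in any of the 1317, nor in 63.8% of all tested genes. Very large differences were more often on the side of higher genes: 36 genes were higher by at least 4 on the log2 scale and 16 were lower by as much. The median over all tested genes was -0.05. Of 687 genes that reached 1 TPM in 1 of the groups only, and so had to differ to be tested, many are among those named below. The counts of called genes per list include them, and each is to be read against the 4.39% higher and 4.61% lower above.

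**Figure D1:**
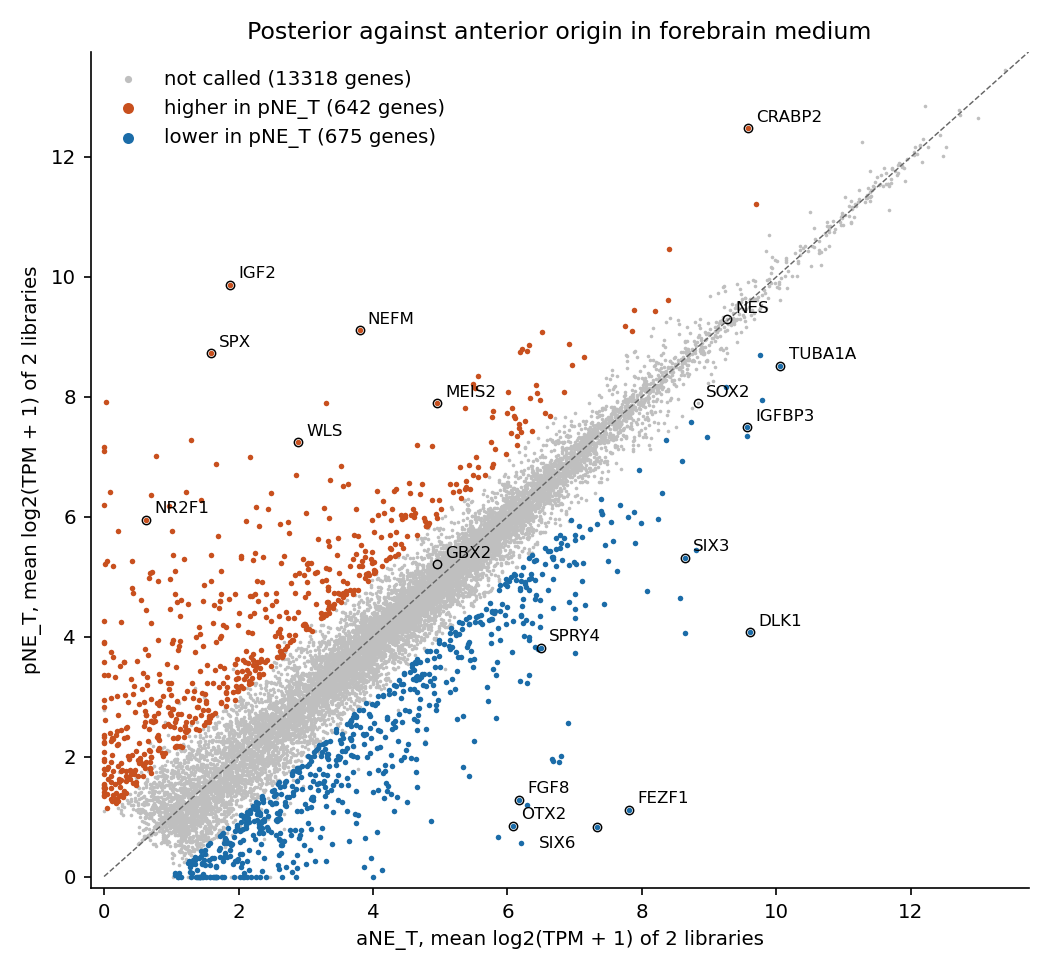
Mean log2(TPM + 1) of 2 libraries in aNE_T (horizontal axis) and pNE_T (vertical axis) for 14635 tested genes, with 642 called higher in pNE_T in orange, 675 called lower in blue and 13318 others in grey; the dashed line marks equal levels. IGF2, SPX and CRABP2 lie far above the line, FEZF1, SIX6, OTX2 and DLK1 far below it, and NES and GBX2 lie near it.

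HOX genes were high in pNE_T and at or near 0 in aNE_T. The 12 HOX genes of groups 1 to 4 and the 27 of groups 5 to 13 were examined, and 12 of these 39 were tested. All 12 were higher in pNE_T, where 4.39% of all tested genes were. All 12 reached 1 TPM in pNE_T only and so had to differ to be tested. Their count is therefore no result by itself, and the levels below are what is described. HOXB1, a hindbrain gene whose promoter is shown above, was listed at 0 in both aNE_T libraries and had 126 and 147 TPM in pNE_T (log2 difference 7.10 ± 0.14 SE, adjusted p = 7.39e-13). HOXB2 was likewise listed at 0 in aNE_T and had 147 and 138 TPM in pNE_T (log2 difference 7.16 ± 0.16 SE). Within aNE_T, no tested HOX gene passed 0.205 TPM in either library, and over all 8 libraries of anterior origin none passed 0.319 TPM. In bulk RNA, fewer cells with a gene and less RNA per cell cannot be told apart.

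Levels differed along the clusters. HOXA3 had 74.6 and 69.7 TPM and HOXB3 had 32.2 and 38.2 TPM in the pNE_T libraries, while HOXA2 had 13.02 and 14.9 TPM. HOXD1 had 40.3 and 31.9 TPM, HOXD3 had 16.4 and 11.99 TPM and HOXD4 had 16.7 and 6.97 TPM, the last with the widest spread between the 2 libraries. Group 4 was represented by HOXD4 and by HOXB4 at 2.30 and 1.59 TPM, and group 5 by HOXA5 at 4.73 and 7.74 TPM and HOXB5 at 2.31 and 3.41 TPM. Beyond these, 26 HOX genes were under 1 TPM in all 4 libraries and HOXC4 reached 1 TPM in 1 library only. HOX expression in pNE_T thus covered groups 1 to 5, and no gene of groups 4 and 5 passed 16.7 TPM. No caudal progenitor gene was present at a level that could be tested: all 8 of the list, among them CDX1, CDX2, CDX4 and TBXT, failed the filter on low values. HOX clusters hold overlapping antisense transcripts, and whether strand was used in the quantification is not given in the sources used here.

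HOX levels in pNE_T were mostly higher than at day 2, when pNE was sampled before the forebrain medium. HOXB1 went from 15.2 and 19.5 TPM at day 2 to the values above, HOXB2 from 10.5 and 11.7 TPM, and HOXD1 from 0.246 and 0.288 TPM. For 11 of the 12 tested HOX genes, the difference between origins in forebrain medium was larger than at day 2 by a test of that change (interaction term, limma, adjusted p under 0.05 and at least 1 on the log2 scale). Among all tested genes the change was called for 7.85%. All 12 passed the filter through pNE_T only, and the filter used no day-2 library, which favours a larger difference at day 4. This count is therefore no result by itself either. In midbrain and hindbrain media, sampled at the same day 4, HOXB1 reached 340.0 and 346 TPM in pNE_M and 347 and 312 TPM in pNE_H, more than in forebrain medium, with origin differences that exceeded the forebrain one by 1.29 ± 0.19 and 1.27 ± 0.19. HOXB4 was highest in midbrain medium, at 31.8 and 26.1 TPM against 2.30 and 1.59 TPM in forebrain medium.

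**Figure D2:**
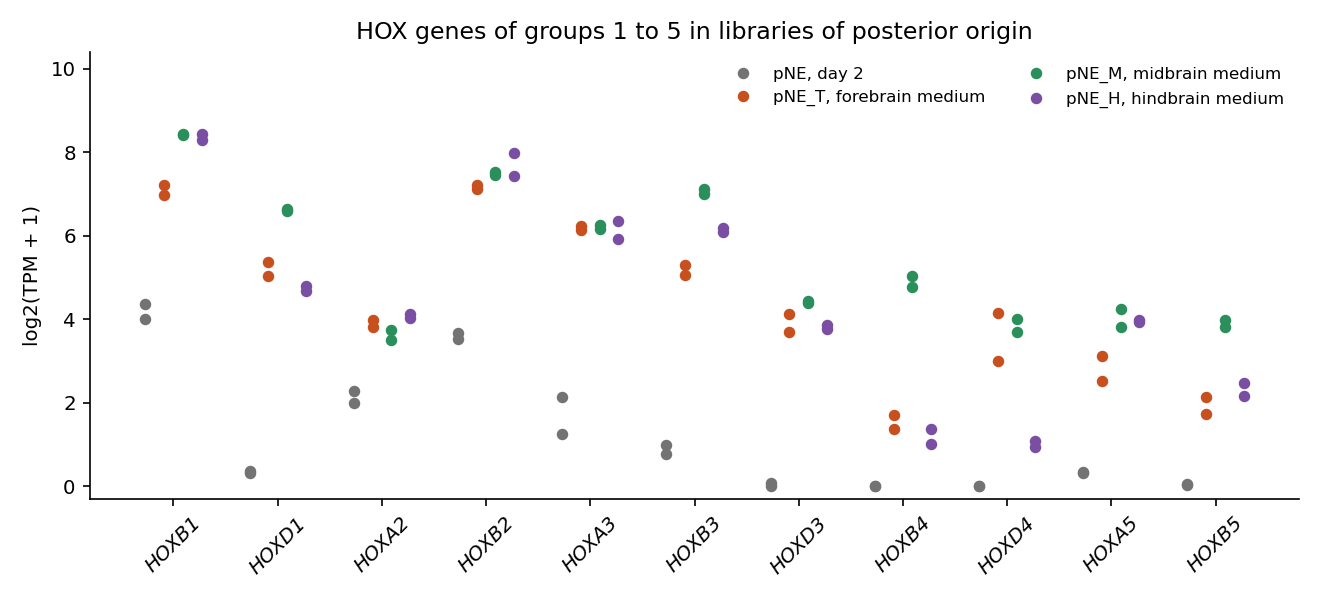
Levels, as log2(TPM + 1), of 11 tested HOX genes in the libraries of posterior origin, with 2 points per group: pNE at day 2 in grey and pNE_T, pNE_M and pNE_H at day 4 in orange, green and purple. HOXB1 and HOXB2 are present in all 4 groups, while HOXD3, HOXB4 and HOXD4 are at or near 0 at day 2 and present in all 3 media.

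The cofactors that bind DNA together with HOX proteins were examined next. All 9 were tested, 4 were higher in pNE_T, against 4.39% of all tested genes, and none was lower. MEIS1, a cofactor of the TALE homeobox class, had 1.51 and 1.96 TPM in aNE_T and 76.7 and 76.2 TPM in pNE_T, and no library of one group reached the other (log2 difference 4.83 ± 0.22 SE, adjusted p = 1.88e-09). MEIS2 had 30.7 and 29.2 TPM in aNE_T and 227 and 246 TPM in pNE_T (log2 difference 2.94 ± 0.12 SE), and MEIS3 had 54.9 and 53.9 TPM in aNE_T and 212 and 221 TPM in pNE_T (log2 difference 1.97 ± 0.10 SE). These 3 cofactors were present in both groups, MEIS1 at a low level in aNE_T. PBX2, at 138 and 134 TPM in aNE_T and 132 and 138 TPM in pNE_T, had a difference of -0.01 ± 0.08 and was not called.

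Most tested genes of the retinoid pathway were higher in pNE_T at day 4; the receptor agonist is listed for day 2 and not for day 3. Of 15 genes, 12 were tested, 9 were higher, against 4.39% of all tested genes, and none was lower, with a median difference of 2.52; 4 of the 12 reached 1 TPM in 1 group only. Among receptors, RARB had 0.78 and 0.489 TPM in aNE_T and 77.8 and 85.2 TPM in pNE_T (log2 difference 5.66 ± 0.16 SE, adjusted p = 1.19e-11), and RARA had 25.2 and 24.8 TPM in aNE_T and 79.0 and 86.2 TPM in pNE_T (log2 difference 1.68 ± 0.13 SE). The receptor RARG had 12.3 and 12.6 TPM in aNE_T and 6.04 and 7.35 TPM in pNE_T, a difference of -0.81 ± 0.17 that was not called. RARB thus separated the origins most among the 3 receptors.

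Proteins that carry and convert retinoids gave the highest levels. CRABP2 (chr1:156699606-156705784), which carries retinoic acid to its nuclear receptors, had 748 and 776 TPM in aNE_T and 6064 and 5372 TPM in pNE_T (log2 difference 2.90 ± 0.09 SE, adjusted p = 3.96e-11). It had the highest level of all genes called higher in pNE_T that carry a symbol. CRABP1, a cytoplasmic relative, had 613 and 595 TPM in aNE_T and 864 and 872 TPM in pNE_T, and its difference of 0.52 ± 0.06 was below the size asked of a call. STRA6, the receptor that takes up retinol, had 10.7 and 10.8 TPM in aNE_T and 85.5 and 96.1 TPM in pNE_T (log2 difference 2.96 ± 0.12 SE). DHRS3, which turns retinal back into retinol, had 0.695 and 0.72 TPM in aNE_T and 119.7 and 138 TPM in pNE_T (log2 difference 6.25 ± 0.13 SE), without overlap. The catabolic enzyme CYP26A1 had 3.57 and 4.63 TPM in aNE_T and 29.8 and 28.7 TPM in pNE_T (log2 difference 2.58 ± 0.17 SE), far under the 352 and 348 TPM of pNE and the 219 and 223 TPM of aNE at day 2. CYP26B1, its relative, had 0.287 and 0.261 TPM in aNE_T and 5.93 and 7.17 TPM in pNE_T. The synthesis enzymes ALDH1A1 and ALDH1A3 failed the filter, and ALDH1A2 had 0.625 and 0.0684 TPM in aNE_T and 1.36 and 1.23 TPM in pNE_T and was not called.

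Genes of hindbrain segments were partly present in pNE_T. Of 10 genes, 7 were tested, 5 were higher in pNE_T and none was lower, against 4.39% higher and 4.61% lower among all tested genes. Of the 5, 2 reached 1 TPM in pNE_T only. ZNF703, a zinc finger protein, had 1.89 and 1.07 TPM in aNE_T and 149.8 and 161 TPM in pNE_T (log2 difference 5.997 ± 0.23 SE). Its relative ZNF503 had 1.59 and 1.09 TPM in aNE_T and 79.2 and 88.5 TPM in pNE_T (log2 difference 5.19 ± 0.17 SE). Both genes were under 2 TPM in aNE_T and high in pNE_T. EGR2, which marks rhombomeres, was lower in level, with 0.318 and 0.204 TPM in aNE_T and 1.77 and 3.14 TPM in pNE_T (log2 difference 1.43 ± 0.25 SE). In hindbrain medium EGR2 reached 7.47 and 6.54 TPM in cells of posterior origin, and its origin difference there exceeded that in forebrain medium by 1.42 ± 0.36.

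GBX2, which sets the anterior border of the hindbrain against OTX2, was among the tested genes of that list that were not called. At day 2 it had 1.04 and 1.05 TPM in aNE and 172 and 216 TPM in pNE, a difference of 6.56 ± 0.19. In forebrain medium it had 29.3 and 30.7 TPM in aNE_T and 38.4 and 33.9 TPM in pNE_T, a difference of 0.26 ± 0.19. The change between the 2 differences was -6.31 ± 0.28 (adjusted p = 4.03e-09). Its partner OTX2 had 71.0 and 62.7 TPM in aNE_T and 0.988 and 0.634 TPM in pNE_T, and was called lower (log2 difference -5.23 ± 0.14 SE).

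**Figure D3:**
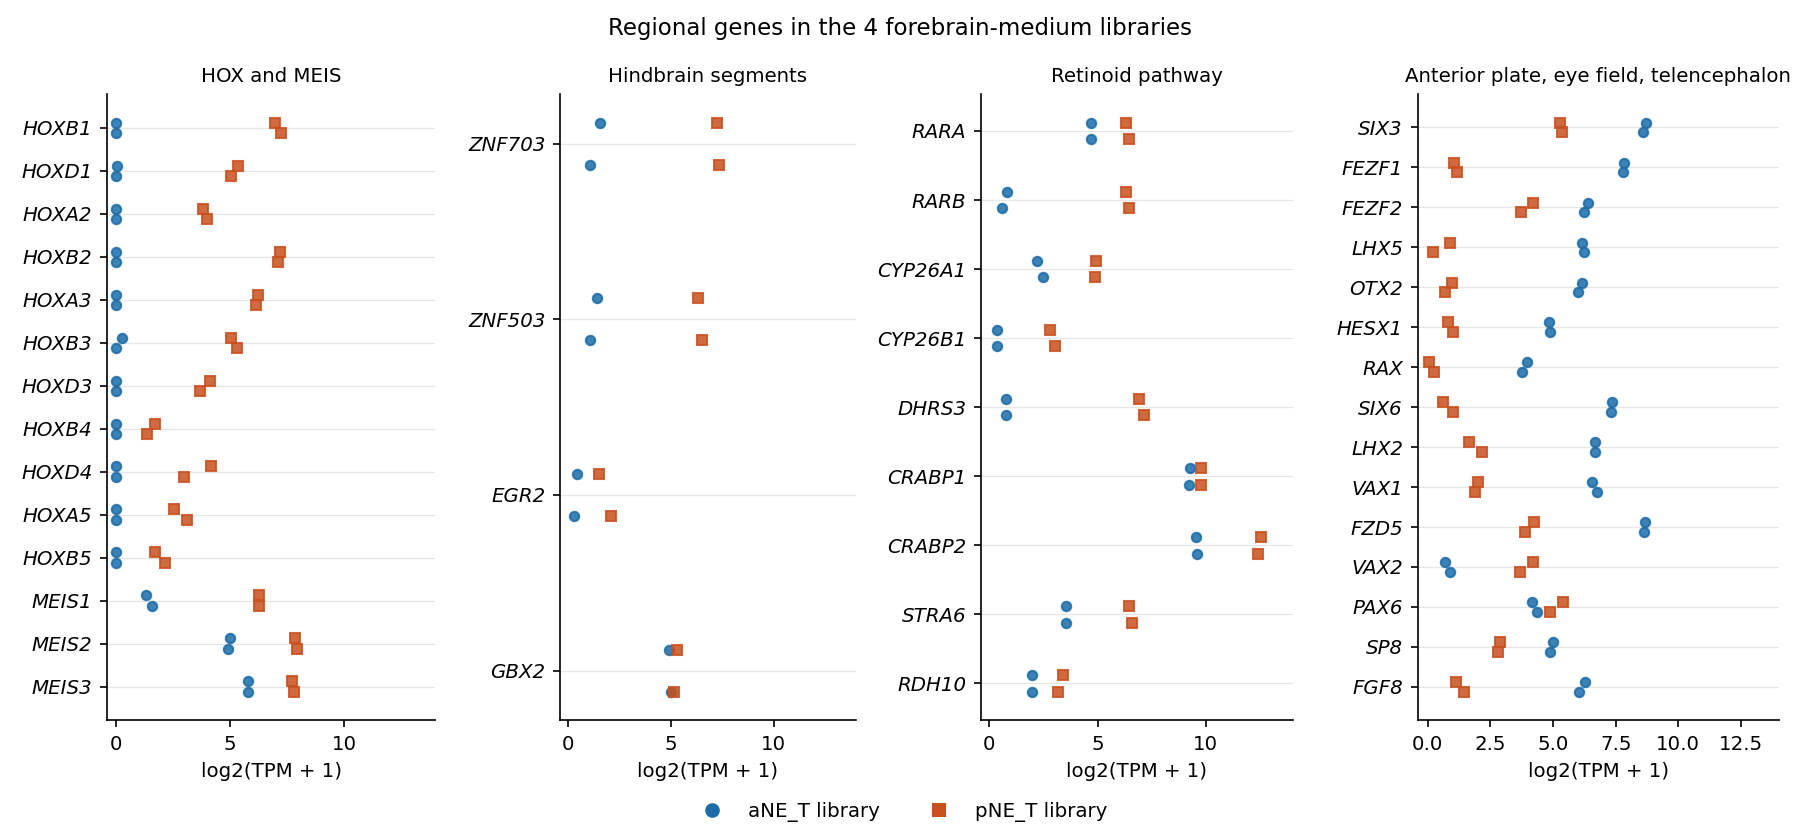
Levels, as log2(TPM + 1), of regional genes in each of the 4 libraries, with aNE_T as blue circles and pNE_T as orange squares. HOX genes are at or near 0 in both aNE_T libraries, the anterior genes SIX3 to FZD5 lie to the right in aNE_T, and VAX2 and PAX6 do not follow that side.

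Anterior neural plate factors were lower in pNE_T. Of 7 genes, 6 were tested and all 6 were lower, against 4.61% of all tested genes, with a median difference of -4.59; 2 of them reached 1 TPM in aNE_T only. FEZF1, a zinc finger factor of the forebrain, had 227 and 220.3 TPM in aNE_T and 1.08 and 1.25 TPM in pNE_T (log2 difference -6.70 ± 0.23 SE, adjusted p = 1.21e-10). LHX5 had 71.0 and 74.1 TPM in aNE_T and 0.835 and 0.174 TPM in pNE_T (log2 difference -5.65 ± 0.22 SE), and HESX1 had 27.6 and 28.5 TPM in aNE_T and 0.766 and 1.03 TPM in pNE_T (log2 difference -3.94 ± 0.24 SE). These 3 factors were at 1.25 TPM or less in both pNE_T libraries. SIX3 and FEZF2 were different in level: SIX3 (chr2:44941702-44946071), which represses WNT in the forebrain, had 414 and 379.5 TPM in aNE_T and 38.0 and 39.8 TPM in pNE_T (log2 difference -3.32 ± 0.15 SE), and FEZF2 had 82.6 and 75.4 TPM in aNE_T and 17.3 and 12.1 TPM in pNE_T (log2 difference -2.37 ± 0.24 SE). Both were thus lower in pNE_T and still well above 1 TPM. FEZF2 in pNE_T was also above its day-2 level of 4.60 and 7.26 TPM in pNE.

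The eye field genes split. Of 11 genes, 8 were tested, 5 were lower and 1 was higher in pNE_T, against 4.61% lower and 4.39% higher among all tested genes. The median difference was -4.14, and 2 of the 6 called genes reached 1 TPM in 1 group only. SIX6 (chr14:60509146-60512850), a homeobox gene of the eye and hypothalamus, had 161 and 159 TPM in aNE_T and 0.547 and 1.04 TPM in pNE_T (log2 difference -6.50 ± 0.18 SE, adjusted p = 1.19e-11). LHX2, a LIM homeobox factor, had 101 and 102 TPM in aNE_T and 2.17 and 3.52 TPM in pNE_T (log2 difference -4.76 ± 0.32 SE). VAX1 had 93.7 and 107 TPM in aNE_T and 3.05 and 2.74 TPM in pNE_T (log2 difference -4.70 ± 0.21 SE). RAX, which is needed for eye formation, was lower in level, with 14.7 and 12.4 TPM in aNE_T and 0.053 and 0.193 TPM in pNE_T (log2 difference -3.69 ± 0.42 SE). FZD5, a Frizzled WNT receptor of the eye field, had 408 and 391 TPM in aNE_T and 17.95 and 13.7 TPM in pNE_T (log2 difference -4.58 ± 0.14 SE). In all 5 genes the groups lay far apart. VAX2, a relative of VAX1, went the other way, with 0.628 and 0.862 TPM in aNE_T and 17.3 and 12.02 TPM in pNE_T (log2 difference 3.15 ± 0.20 SE), having reached 1 TPM in pNE_T only. PAX6, a factor of the eye and of much of the neural tube, had 17.0 and 19.7 TPM in aNE_T and 41.0 and 28.3 TPM in pNE_T, a difference of 0.86 ± 0.21 that was not called, after one of -3.39 ± 0.21 at day 2. Without the second pNE_T library it was called higher, at 1.12.

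Genes of the later forebrain were mostly under 1 TPM in all 4 libraries. This held for 7 of 9 telencephalon factors and for 9 of 10 genes of the diencephalon and hypothalamus. Of 9 telencephalon factors 2 were tested, and both were lower in pNE_T, against 4.61% of all tested genes. Of the 2, 1 reached 1 TPM in aNE_T only. SP8, a zinc finger factor, had 30.7 and 28.6 TPM in aNE_T and 6.40 and 6.08 TPM in pNE_T (log2 difference -2.08 ± 0.18 SE). At day 2 SP8 had 7.57 and 8.69 TPM in aNE, and in midbrain and hindbrain media it had 19.6 and 18.7 TPM in aNE_M and 59.9 and 40.5 TPM in aNE_H in cells of anterior origin. Of 10 genes of the diencephalon and hypothalamus, 1 was tested: TCF7L2, a WNT effector, had 139 and 134 TPM in aNE_T and 47.3 and 52.3 TPM in pNE_T (log2 difference -1.44 ± 0.13 SE). NKX2-1, a hypothalamus factor, was at or under 0.102 TPM in all 4 libraries.

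Midbrain and isthmus genes were low in both groups apart from FGF8. Of 11 genes, 4 were tested, 2 were lower and none was higher, against 4.61% lower and 4.39% higher among all tested genes. Of the 4, 2 reached 1 TPM in aNE_T only. EN1, EN2 and WNT1 were listed at 0 in all 4 libraries. FGF8, a growth factor of the isthmus and also of the front edge of the neural plate, had 77.5 and 64.9 TPM in aNE_T and 1.19 and 1.71 TPM in pNE_T (log2 difference -4.88 ± 0.33 SE). FGF17, its relative, had 1.46 and 1.39 TPM in aNE_T and 0.111 and 0 TPM in pNE_T (log2 difference -1.20 ± 0.18 SE), a level near the filter. PAX2 and LMX1B, at no more than 1.85 TPM in any of the 4 libraries, were not called. Of 6 IRX factors 4 were tested, and IRX3 alone was called: it had 7.56 and 6.67 TPM in aNE_T and 29.3 and 28.7 TPM in pNE_T (log2 difference 1.89 ± 0.21 SE), the reverse of its day-2 difference of -1.82 ± 0.21. Without the second pNE_T library IRX1 was called higher as well, at 1.15.

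Of 7 COUP-TF and related nuclear receptors, 6 were tested and NR2F1 was called, against 9.0% of all tested genes. NR2F1 (chr5:93583222-93594611), a nuclear receptor with graded expression in the brain, had 0.659 and 0.422 TPM in aNE_T and 57.7 and 64.0 TPM in pNE_T (log2 difference 5.33 ± 0.17 SE, adjusted p = 3.87e-11). At day 2 it was under 1 TPM in both origins. In hindbrain medium it was present in both origins, at 23.3 and 22.2 TPM and 18.1 and 15.04 TPM, with an origin difference of -0.44. In midbrain medium the origin difference was 1.16, in the same direction as in forebrain medium and smaller. The interaction was 4.17 ± 0.24 against midbrain and 5.77 ± 0.24 against hindbrain medium. NR2F2, its closest relative, had 19.2 and 17.6 TPM in aNE_T and 20.4 and 23.8 TPM in pNE_T and a difference of 0.25 ± 0.23 that was not called.

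FGF signals reach the nucleus through the kinase ERK, which induces its own inhibitors, and transcripts of the SPRY, SPRED, DUSP and ETV genes are common readouts of the pathway. At day 2, when pNE had received FGF2 and aNE had not, 11 of the 17 listed genes were higher in pNE and none was lower, against 3.87% of tested genes called in either direction. In forebrain medium, which held FGF2 for both, 2 were higher and 4 were lower in pNE_T, against 4.39% and 4.61% of all tested genes. SPRY4, an inhibitor of the pathway, had 6.40 and 5.03 TPM in aNE and 77.5 and 86.0 TPM in pNE at day 2. In forebrain medium it had 88.2 and 90.6 TPM in aNE_T and 13.01 and 13.2 TPM in pNE_T (log2 difference -2.68 ± 0.10 SE, adjusted p = 3.17e-10), so the order of the origins was inverted. IL17RD, another inhibitor, had 186 and 184 TPM in aNE_T and 58.0 and 60.5 TPM in pNE_T (log2 difference -1.63 ± 0.08 SE) after 9.75 and 10.2 TPM in aNE and 61.3 and 66.1 TPM in pNE at day 2. SPRED3 and ETV1 were the other lower genes, with differences of -1.54 ± 0.29 and -1.27 ± 0.15.

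Other feedback genes were not called in forebrain medium or kept their direction. DUSP6, a phosphatase of ERK, had 29.3 and 33.6 TPM in aNE and 274 and 238 TPM in pNE at day 2 and 277 and 272 TPM in aNE_T and 274 and 289 TPM in pNE_T, where the difference was 0.04 ± 0.08. ETV4 and ETV5 had differences of -0.28 ± 0.10 and -0.59 ± 0.11 in forebrain medium and were not called, against 3.09 ± 0.10 and 2.30 ± 0.11 at day 2. By adjusted p alone, with no size asked, ETV5 was among 7 lower genes of the list, and 3 were higher. DUSP4 kept its direction, with 23.1 and 23.0 TPM in aNE_T and 68.9 and 69.6 TPM in pNE_T (log2 difference 1.54 ± 0.08 SE). The receptor FGFR4 had 9.75 and 8.85 TPM in aNE_T and 91.9 and 102 TPM in pNE_T (log2 difference 3.25 ± 0.11 SE), while FGFR1 had 454 and 446 TPM in aNE_T and 475 and 491 TPM in pNE_T and a difference of 0.10 ± 0.09. For 13 of the 17 genes, the change in the origin difference since day 2 passed the test, against 7.85% of all tested genes. Plating density was the same for both origins at day 2 and differed at day 4, and its part in this change was not tested.

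**Figure D4:**
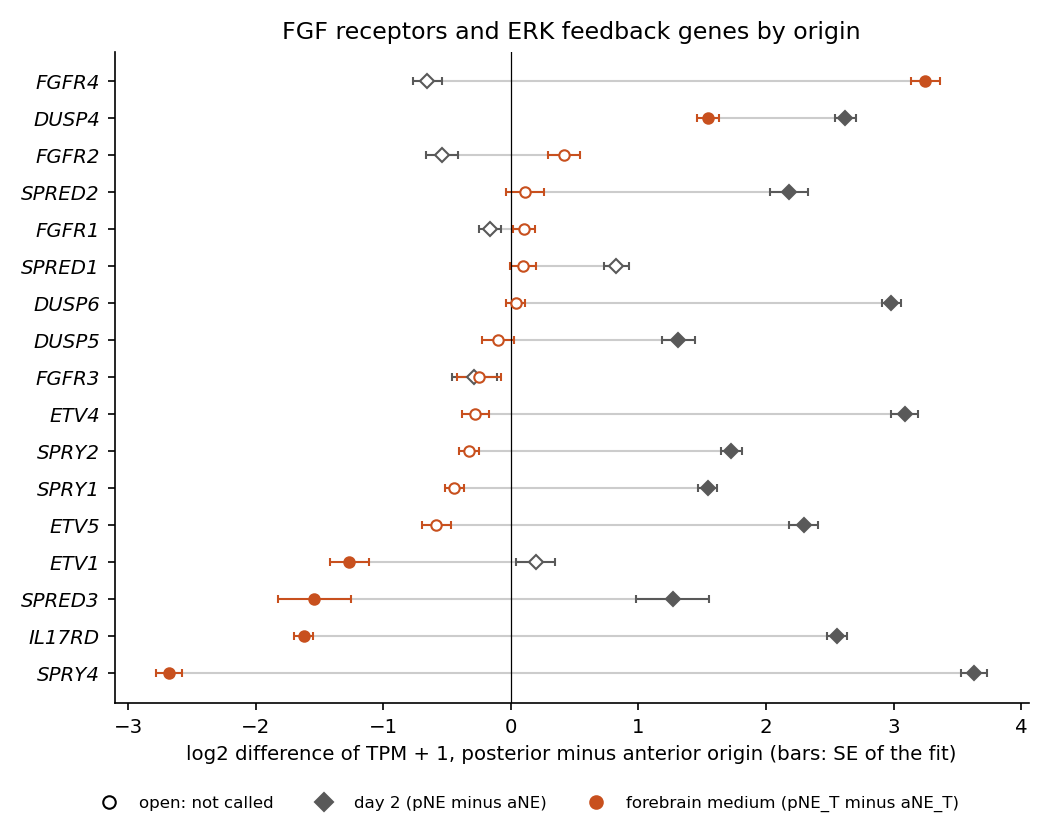
Origin differences of 17 FGF receptor and ERK feedback genes, on log2(TPM + 1), at day 2 (grey diamonds, pNE minus aNE) and in forebrain medium (orange circles, pNE_T minus aNE_T), with bars for the SE of the fit and filled symbols for called genes. Most genes are above 0 at day 2 and near or under 0 in forebrain medium, and SPRY4 moves farthest; FGFR4 moves the other way.

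Other signalling lists gave a few members each, to be read against 4.39% higher and 4.61% lower among all tested genes. Of 11 WNT targets, 5 were tested and 2 were higher in pNE_T: AXIN2, a feedback inhibitor of the pathway, with 7.80 and 9.09 TPM in aNE_T and 28.0 and 31.1 TPM in pNE_T (log2 difference 1.70 ± 0.10 SE), and TCF7 with 3.09 and 2.90 TPM in aNE_T and 7.66 and 7.58 TPM in pNE_T (log2 difference 1.11 ± 0.16 SE). In midbrain medium AXIN2 had 315 and 312 TPM in cells of anterior origin and 272 and 268 TPM in cells of posterior origin, far above its forebrain-medium levels. All 8 secreted WNT antagonists were tested, 3 of them having reached 1 TPM in 1 group only; 1 was higher and 2 were lower. FRZB had 109.9 and 109 TPM in aNE_T and 2.81 and 3.27 TPM in pNE_T (log2 difference -4.78 ± 0.13 SE, adjusted p = 1.19e-11), DKK2 was also lower (log2 difference -1.44 ± 0.21 SE), and SFRP5 was higher, with 0.241 and 0 TPM in aNE_T and 10.02 and 8.05 TPM in pNE_T (log2 difference 3.16 ± 0.20 SE). SFRP1, the antagonist with the highest level, had 410.3 and 405 TPM in aNE_T and 334 and 371 TPM in pNE_T and a difference of -0.21 ± 0.07. WLS, which escorts WNT ligands to the cell surface, had 5.76 and 7.03 TPM in aNE_T and 162 and 139 TPM in pNE_T (log2 difference 4.36 ± 0.12 SE); in cells of anterior origin it had 100.01 and 88.5 TPM at day 2 and 251 and 246 TPM in hindbrain medium.

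Genes of the dorsoventral axis were examined through 3 lists, whose counts stand against 4.39% higher and 4.61% lower among all tested genes. Of 11 hedgehog and ventral genes, 7 were tested and 2 were higher in pNE_T, both having reached 1 TPM in pNE_T only. The ligand SHH had 0.0499 and 0.0933 TPM in aNE_T and 2.01 and 2.39 TPM in pNE_T (log2 difference 1.58 ± 0.27 SE). FOXA2, listed here as a floor plate factor, had 0.0203 and 0 TPM in aNE_T and 4.36 and 6.01 TPM in pNE_T (log2 difference 2.60 ± 0.21 SE). The endoderm markers AFP and GATA6, described below, were higher in pNE_T too, and which cells made FOXA2 was not tested. The hedgehog targets GLI1 and PTCH1 were not called, at 1.23 ± 0.46 and 0.76 ± 0.12. Of 12 dorsal genes, 8 were tested and 3 were lower, 2 of these having reached 1 TPM in aNE_T only: ZIC1, with 80.0 and 73.9 TPM in aNE_T and 1.05 and 1.56 TPM in pNE_T (log2 difference -5.09 ± 0.30 SE), PAX7, with 7.89 and 6.16 TPM in aNE_T and 0.12 and 0.18 TPM in pNE_T (log2 difference -2.80 ± 0.17 SE), and ZIC4 (log2 difference -2.02 ± 0.28 SE). ZIC2, the most abundant of the list, had 247 and 247 TPM in aNE_T and 169 and 169 TPM in pNE_T and was not called (-0.54 ± 0.11). Without the second aNE_T library or the first pNE_T library MSX1 was called higher, at 1.16 and 1.04. Of 12 BMP ligands and targets, 10 were tested, 3 were higher and 1 was lower. Without the second aNE_T library SMAD7 was called lower as well, at -1.05. BAMBI, a decoy receptor that reached 1 TPM in pNE_T only, had 0.971 and 0.922 TPM in aNE_T and 68.7 and 73.7 TPM in pNE_T (log2 difference 5.21 ± 0.13 SE), while the targets ID1 and SMAD6 were higher by 1.33 ± 0.18 and 1.502 ± 0.18 and the ligand BMP4 was lower, with 83.6 and 86.2 TPM in aNE_T and 22.3 and 27.7 TPM in pNE_T (log2 difference -1.73 ± 0.20 SE). ID3, the target with the highest level, had 428 and 432 TPM in aNE_T and 232 and 217 TPM in pNE_T, a difference of -0.94 ± 0.09 just under the size asked of a call.

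Of 14 Notch pathway genes, 13 were tested, 6 were lower and 1 was higher in pNE_T, against 4.61% lower and 4.39% higher among all tested genes. The median difference was -0.77, and 2 of the 13 reached 1 TPM in 1 group only. The ligand DLL1 had 55.8 and 47.2 TPM in aNE_T and 7.58 and 5.71 TPM in pNE_T (log2 difference -2.79 ± 0.35 SE), and LFNG, an enzyme that modifies the receptors, had 44.7 and 43.4 TPM in aNE_T and 10.2 and 10.3 TPM in pNE_T (log2 difference -2.003 ± 0.11 SE). The receptor NOTCH1 had 64.2 and 61.3 TPM in aNE_T and 20.7 and 22.5 TPM in pNE_T (log2 difference -1.496 ± 0.15 SE) and the target HES1 had 104 and 98.7 TPM in aNE_T and 38.2 and 38.2 TPM in pNE_T (log2 difference -1.39 ± 0.10 SE). The remaining lower genes, DLL3 and HES5, were near the filter, and so was HEY2, the gene that was higher. DLL3 was not called without the second pNE_T library (-0.99), nor HES5 after quantile normalization (-0.97). JAG1 and NOTCH2, at -0.23 ± 0.13 and -0.55 ± 0.12, were not called.

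Pan-neural progenitor genes differed in part. Of 12 genes, 11 were tested, 2 were higher and 3 were lower in pNE_T, against 4.39% and 4.61% of all tested genes. SOX3 had 141 and 134 TPM in aNE_T and 40.2 and 33.4 TPM in pNE_T (log2 difference -1.88 ± 0.19 SE), SOX1 had 4.95 and 4.10 TPM in aNE_T and 1.75 and 1.02 TPM in pNE_T (log2 difference -1.22 ± 0.21 SE) and FABP7, a lipid-binding protein of radial glia, had 39.5 and 39.4 TPM in aNE_T and 5.79 and 5.07 TPM in pNE_T (log2 difference -2.66 ± 0.19 SE). SOX2, whose values are given above, had a difference of -0.94 ± 0.11. The POU factor POU3F1 was higher, with 22.4 and 21.1 TPM in aNE_T and 46.4 and 54.8 TPM in pNE_T (log2 difference 1.18 ± 0.16 SE), and so was POU3F2, with 0.515 and 0.46 TPM in aNE_T and 10.1 and 8.96 TPM in pNE_T (log2 difference 2.82 ± 0.18 SE). Neuronal genes were scarce in both groups: of 13, 3 were tested. TUBB3, a beta-tubulin of neurons that other early cells also make, had 184 and 165 TPM in aNE_T and 43.9 and 46.8 TPM in pNE_T (log2 difference -1.92 ± 0.10 SE), and the neurogenic factor NEUROG2 had 0.0213 and 0.0404 TPM in aNE_T and 1.41 and 1.78 TPM in pNE_T (log2 difference 1.33 ± 0.25 SE). NEFM, a neurofilament subunit, was far higher in pNE_T, with 12.8 and 13.03 TPM in aNE_T and 521 and 580.3 TPM in pNE_T (log2 difference 5.31 ± 0.12 SE). It had 1952 and 1819 TPM in cells of posterior origin in hindbrain medium, while STMN2 and DCX, other neuronal genes, were under 1 TPM in all 4 forebrain-medium libraries.

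The largest difference by size was that of IGF2 (chr11:2129117-2149566), an imprinted growth factor. It had 2.80 and 2.55 TPM in the aNE_T libraries and 900.0 and 973 TPM in the pNE_T libraries, a gap that far exceeded the spread within either group (log2 difference 7.99 ± 0.16 SE, adjusted p = 7.39e-13). At day 2 it had 2.63 and 1.77 TPM in aNE and 2.18 and 3.21 TPM in pNE, and the change in the origin difference was called (7.79 ± 0.23, adjusted p = 1.15e-10). In midbrain and hindbrain media IGF2 reached 1064 and 1156 TPM in pNE_M and 1381 and 1175 TPM in pNE_H in cells of posterior origin. Of the 12 listed genes of the IGF pathway 10 were tested, and H19 is not used here. IGFBP2, a binding protein, was higher, with 796 and 864 TPM in aNE_T and 2373 and 2395 TPM in pNE_T (log2 difference 1.52 ± 0.09 SE), IGFBP3 was lower, with 745 and 769 TPM in aNE_T and 181 and 178 TPM in pNE_T (log2 difference -2.07 ± 0.11 SE), and the receptor IGF1R had 60.2 and 54.6 TPM in aNE_T and 41.4 and 41.5 TPM in pNE_T and was not called.

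Among genes outside the lists with the largest differences, SPX, which encodes the peptide hormone spexin, had 1.93 and 2.07 TPM in aNE_T and 407 and 438 TPM in pNE_T (log2 difference 7.14 ± 0.24 SE, adjusted p = 8.26e-11). NELL1, a secreted protein with EGF-like repeats, had 0.138 and 0 TPM in aNE_T and 79.5 and 89.9 TPM in pNE_T (log2 difference 6.33 ± 0.17 SE), and CNR1, the cannabinoid receptor of neurons, had 0.0261 and 0.0426 TPM in aNE_T and 35.1 and 39.4 TPM in pNE_T (log2 difference 5.20 ± 0.14 SE). On the lower side, DLK1, an imprinted transmembrane protein related to Notch ligands, had 803 and 756 TPM in aNE_T and 14.6 and 17.4 TPM in pNE_T (log2 difference -5.53 ± 0.20 SE, adjusted p = 2.1e-10). SMOC1, a secreted BMP regulator, had 107 and 108 TPM in aNE_T and 3.04 and 2.48 TPM in pNE_T (log2 difference -4.85 ± 0.18 SE), and SLITRK1, a neuronal membrane protein, had 15.4 and 17.6 TPM in aNE_T and 0.144 and 0.0188 TPM in pNE_T (log2 difference -4.02 ± 0.17 SE). CEACAM21, a member of a family of closely related adhesion genes whose reads may have been split between copies, had 114 and 124 TPM in aNE_T and 3.90 and 6.05 TPM in pNE_T (log2 difference -4.35 ± 0.17 SE).

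Among genes higher in pNE_T that carry a symbol, CRABP2, IGFBP2, CD24, IGF2 and SCD had the highest pNE_T levels. CD24, a surface glycoprotein with pseudogene copies between which reads may have been split, had 339 and 336 TPM in aNE_T and 1405 and 1416 TPM in pNE_T (log2 difference 2.06 ± 0.06 SE), and SCD, a fatty acid desaturase, had 332 and 338 TPM in aNE_T and 719 and 843 TPM in pNE_T (log2 difference 1.21 ± 0.09 SE). The genes with the highest aNE_T levels among those lower in pNE_T were TUBA1A, an alpha-tubulin with close copies between which reads may have been split, with 1064 and 1069 TPM in aNE_T and 367 and 365 TPM in pNE_T (log2 difference -1.54 ± 0.06 SE), CSRP2, a LIM protein, with 852 and 912 TPM in aNE_T and 246 and 243 TPM in pNE_T (log2 difference -1.85 ± 0.08 SE), and CALD1, which binds actin, with 869 and 866 TPM in aNE_T and 409 and 423 TPM in pNE_T (log2 difference -1.06 ± 0.07 SE). CALD1 fell just short of the call after median-ratio scaling, at -0.99. DLK1 and IGFBP3, described above, completed that set of 5.

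Genes of cell contact and sorting were counted by family. Of 13 classical cadherins 12 were tested, 6 were higher and 2 were lower in pNE_T, against 4.39% higher and 4.61% lower among all tested genes, and 2 of the 12 reached 1 TPM in pNE_T only. CDH6, a cadherin of the neural plate, had 56.6 and 51.1 TPM in aNE_T and 202 and 201 TPM in pNE_T (log2 difference 1.89 ± 0.08 SE), while CDH3 had 33.6 and 35.1 TPM in aNE_T and 5.93 and 9.16 TPM in pNE_T (log2 difference -2.07 ± 0.14 SE) and CDH11 had 174 and 160.3 TPM in aNE_T and 79.4 and 76.5 TPM in pNE_T (log2 difference -1.09 ± 0.13 SE). CDH2, the main neural cadherin, had 297 and 304 TPM in aNE_T and 191 and 186 TPM in pNE_T and a difference of -0.67 ± 0.10 that was not called. The other higher genes were CDH7, CDH12, CDH13, CDH18 and CDH20, with levels of no more than 17.3 TPM in any of the 4 libraries. Without the second aNE_T or the second pNE_T library, CDH7 was not called (0.98 and 0.97), and 5 cadherins were higher and 4 lower. Of 20 Eph receptors and ephrins 17 were tested, 3 were higher and 4 were lower; 2 of these 7 reached 1 TPM in 1 group only. EFNA1, one of the lower genes, was not called without the second aNE_T or the second pNE_T library (-0.99 and -0.98). The ligand EFNB2 had 45.2 and 45.4 TPM in aNE_T and 124 and 127 TPM in pNE_T (log2 difference 1.45 ± 0.09 SE), and the receptor EPHA2 had 172 and 166 TPM in aNE_T and 68.2 and 61.9 TPM in pNE_T (log2 difference -1.36 ± 0.09 SE). EPHA4, a receptor of hindbrain segments, had 56.3 and 51.4 TPM in aNE_T and 39.4 and 45.1 TPM in pNE_T and was not called (-0.35 ± 0.15).

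Markers of other cell types were summed per library. The counts of called genes in these short lists stand against 4.39% higher and 4.61% lower among all tested genes. Endoderm markers summed to 3.21 and 4.71 TPM in the aNE_T libraries and 34.6 and 40.7 TPM in the pNE_T libraries, with 2 of 4 tested genes higher. Without the second aNE_T or the first pNE_T library FOXA1 was also called higher, at 1.138 and 1.096. AFP, made by endoderm and yolk sac, carried most of this, with 1.23 and 2.51 TPM in aNE_T and 26.3 and 29.7 TPM in pNE_T (log2 difference 3.37 ± 0.30 SE), and GATA6, which reached 1 TPM in pNE_T only, had 0.193 and 0.0974 TPM in aNE_T and 4.22 and 4.47 TPM in pNE_T (log2 difference 2.22 ± 0.25 SE), while SOX17, the defining endoderm factor, was at or under 0.0382 TPM. Mesoderm markers summed to 26.9 and 24.1 TPM in aNE_T and 35.9 and 33.3 TPM in pNE_T. MEOX1 (log2 difference 3.52 ± 0.19 SE) and FOXC1 (log2 difference 1.90 ± 0.16 SE) were higher, both having reached 1 TPM in pNE_T only, and KDR, the VEGF receptor, was lower (log2 difference -3.24 ± 0.15 SE), with TBX6, MSGN1, EOMES and HAND1 under 1 TPM in all 4 libraries. Neural crest markers summed to 107 and 106 TPM in aNE_T and 45.3 and 47.2 TPM in pNE_T, and 2 of 4 tested genes were lower, among them SOX9 (log2 difference -1.77 ± 0.11 SE); FOXD3 and TFAP2A were under 1 TPM.

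Surface ectoderm and placode markers summed to 478 and 478 TPM in aNE_T and 815 and 902 TPM in pNE_T, of which the keratin KRT18 made up most. KRT19 was higher, with 65.8 and 60.2 TPM in aNE_T and 207 and 217 TPM in pNE_T (log2 difference 1.73 ± 0.14 SE), DLX5, DLX6 and SIX4 were lower, and KRT5 and TP63 were under 1 TPM. DLX6 was not called without the second aNE_T library (-0.96) or the first pNE_T library (-0.89), and in each of these cases 3 genes of the list were higher and 2 lower. KRT18, with a difference of 0.99 ± 0.08, was called without either of those libraries. Without the first aNE_T or the second pNE_T library EYA2 was called higher, at 1.07 and 1.03. Pluripotency markers summed to 96.8 and 105 TPM in aNE_T and 76.1 and 69.7 TPM in pNE_T. Of these, 1 of 3 tested genes, ZFP42, was lower, against 4.61% of all tested genes. POU5F1 had 2.66 and 3.57 TPM in aNE_T and 3.63 and 7.28 TPM in pNE_T and NANOG was under 1 TPM. Without the first pNE_T library POU5F1 was called higher, at 1.02. The part of such cells in the results above was not tested.

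Because the posterior arm was plated at the higher density, genes that respond to crowding were counted. Of 12 TEAD and YAP genes, all tested, 1 was higher: ANKRD1, with 126 and 122 TPM in aNE_T and 375 and 359 TPM in pNE_T (log2 difference 1.56 ± 0.21 SE). CCN2 and CCN1, targets of the same factors, had differences of 0.91 ± 0.10 and -0.59 ± 0.14, and neither was called. Of 14 cell cycle genes, all tested, none was higher and 2 were lower, CDKN2A (log2 difference -1.77 ± 0.19 SE) and CDKN2B (log2 difference -1.05 ± 0.24 SE), both inhibitors at no more than 8.22 TPM. CDKN2B was not called without the second aNE_T library (-0.90). The proliferation gene MKI67 had 49.7 and 46.3 TPM in aNE_T and 46.4 and 45.1 TPM in pNE_T, a difference of -0.07 ± 0.13. Of 12 glycolysis and hypoxia genes, all tested, 1 was lower: the glucose transporter SLC2A3, with 499 and 497 TPM in aNE_T and 153 and 165 TPM in pNE_T (log2 difference -1.64 ± 0.09 SE). Set against 9.0% called among all tested genes, these counts give no result about the 3 lists. What part density had in other genes was not tested.

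Most genes called in forebrain medium were not called at day 2. At day 2, 567 of the same 14635 genes (3.87%) were called between pNE and aNE, in libraries that the forebrain comparison does not share. Of the 1317 genes called in forebrain medium, 246 (18.7%) were called in the same direction at day 2, which is 43.4% of the day-2 calls, 50 (3.80%) in the opposite direction and 1021 (77.5%) not at all. The change in the difference was itself called for 1149 genes (7.85%). Of the 50 genes with opposite directions, 40 were lower and 10 higher in forebrain medium. All 50 passed that test too, but calls in opposite directions nearly ensure this, so it adds no support. HES3, a repressor of the HES family, had 196 and 176 TPM in aNE and 7.30 and 8.23 TPM in pNE at day 2, and 0.778 and 0.375 TPM in aNE_T and 12.2 and 5.32 TPM in pNE_T. TLR4, a receptor of innate immunity, had 0.168 and 0.244 TPM in aNE and 5.13 and 4.71 TPM in pNE at day 2, and 16.9 and 18.1 TPM in aNE_T and 1.79 and 1.56 TPM in pNE_T. KDR had 3.35 and 3.56 TPM in aNE and 20.9 and 17.6 TPM in pNE at day 2, and 18.8 and 19.1 TPM in aNE_T and 1.19 and 1.05 TPM in pNE_T. These 3 genes were picked because the origin with the higher level changed between the days, so that change is no result by itself.

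Of the other genes with the largest reversals, GRIA3, a subunit of AMPA-type glutamate receptors, had 9.78 and 11.4 TPM in aNE_T and 2.07 and 1.70 TPM in pNE_T (log2 difference -2.005 ± 0.29 SE) after a day-2 difference of 2.57 ± 0.29. SCUBE1, a secreted protein, had 11.6 and 11.01 TPM in aNE_T and 2.03 and 2.21 TPM in pNE_T (log2 difference -1.98 ± 0.30 SE) after 2.72 ± 0.30, and TIMP4, an inhibitor of metalloproteinases, had 7.55 and 6.21 TPM in aNE_T and 0.609 and 0.28 TPM in pNE_T (log2 difference -2.45 ± 0.19 SE) after 1.89 ± 0.19. CEACAM21 and SPRY4 are described above. Of these 8 genes, 7 were higher in pNE at day 2 and lower in pNE_T, HES3 being the exception.

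Against the other media, part of the difference was shared. Between origins, 793 of the 14635 genes (5.42%) were called in midbrain medium and 1030 (7.04%) in hindbrain medium. Of the 1317 genes, 346 (26.3%) were called in the same direction in midbrain medium, which is 43.6% of the calls there, and 560 (42.5%) in hindbrain medium, which is 54.4% of the calls there. Opposite directions were called for 41 and 20 genes. In both media 243 genes had the same direction, and 76 also had it at day 2, HOXB1, HOXB2, FEZF1 and OTX2 among them. The interaction with medium was called for 1143 genes (7.81%) against midbrain and 834 (5.70%) against hindbrain medium.

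Some differences were larger in forebrain medium than in both other media. This measure asked for a call in forebrain medium and for both interactions with medium to be called in the same direction. By it 128 of all 14635 tested genes were higher in pNE_T (9.72% of the 1317 called genes) and 170 were lower (12.9%). The call and both interactions use the same 4 forebrain-medium libraries. Choosing called genes therefore favours a larger difference in this medium, and the shares of called genes are no test of it. NR2F1 and WLS led the higher ones. ITGA8, an integrin, had 0.382 and 0.324 TPM in aNE_T and 24.2 and 26.7 TPM in pNE_T (log2 difference 4.29 ± 0.14 SE), against 41.0 and 37.8 TPM in aNE_H and 65.9 and 71.1 TPM in pNE_H in hindbrain medium. CYP1B1, a cytochrome enzyme, had 0.798 and 0.689 TPM in aNE_T and 31.1 and 27.8 TPM in pNE_T (log2 difference 4.12 ± 0.23 SE), against 30.7 and 36.2 TPM in aNE_M and 66.9 and 63.5 TPM in pNE_M in midbrain medium. In both genes, cells of anterior origin were under 1 TPM in forebrain medium and well above it in the other medium. CALB2, a calcium-binding protein, was higher in pNE_T (log2 difference 2.26 ± 0.21 SE) and lower in cells of posterior origin in hindbrain medium (-2.79 ± 0.21). GFRA1, a receptor for GDNF, had 5.95 and 6.56 TPM in aNE_T and 105 and 101 TPM in pNE_T (log2 difference 3.84 ± 0.14 SE), and TPD52L1 and ADAMTSL4 had differences of 3.12 ± 0.14 and 4.04 ± 0.21.

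Among lower genes, SIX6 led. CER1, a secreted antagonist of BMP, NODAL and WNT, had 8.69 and 10.6 TPM in aNE_T and 1.59 and 0.717 TPM in pNE_T (log2 difference -2.33 ± 0.23 SE), and in hindbrain medium it was higher in cells of posterior origin (1.85 ± 0.23). ZIC1 was likewise lower in pNE_T and higher in cells of posterior origin in midbrain medium, with 29.4 and 39.5 TPM in aNE_M and 148 and 123 TPM in pNE_M there. GPR176, an orphan receptor, had 174 and 171 TPM in aNE_T and 23.1 and 21.6 TPM in pNE_T (log2 difference -2.90 ± 0.09 SE), and its differences in the other media were 0.61 ± 0.09 and 0.23 ± 0.09, neither of them called. HESX1, SMOC1 and STOML3 were also in the set. HESX1 and STOML3 were at 4.51 TPM or less in all libraries of the other 2 media.

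**Figure D5:**
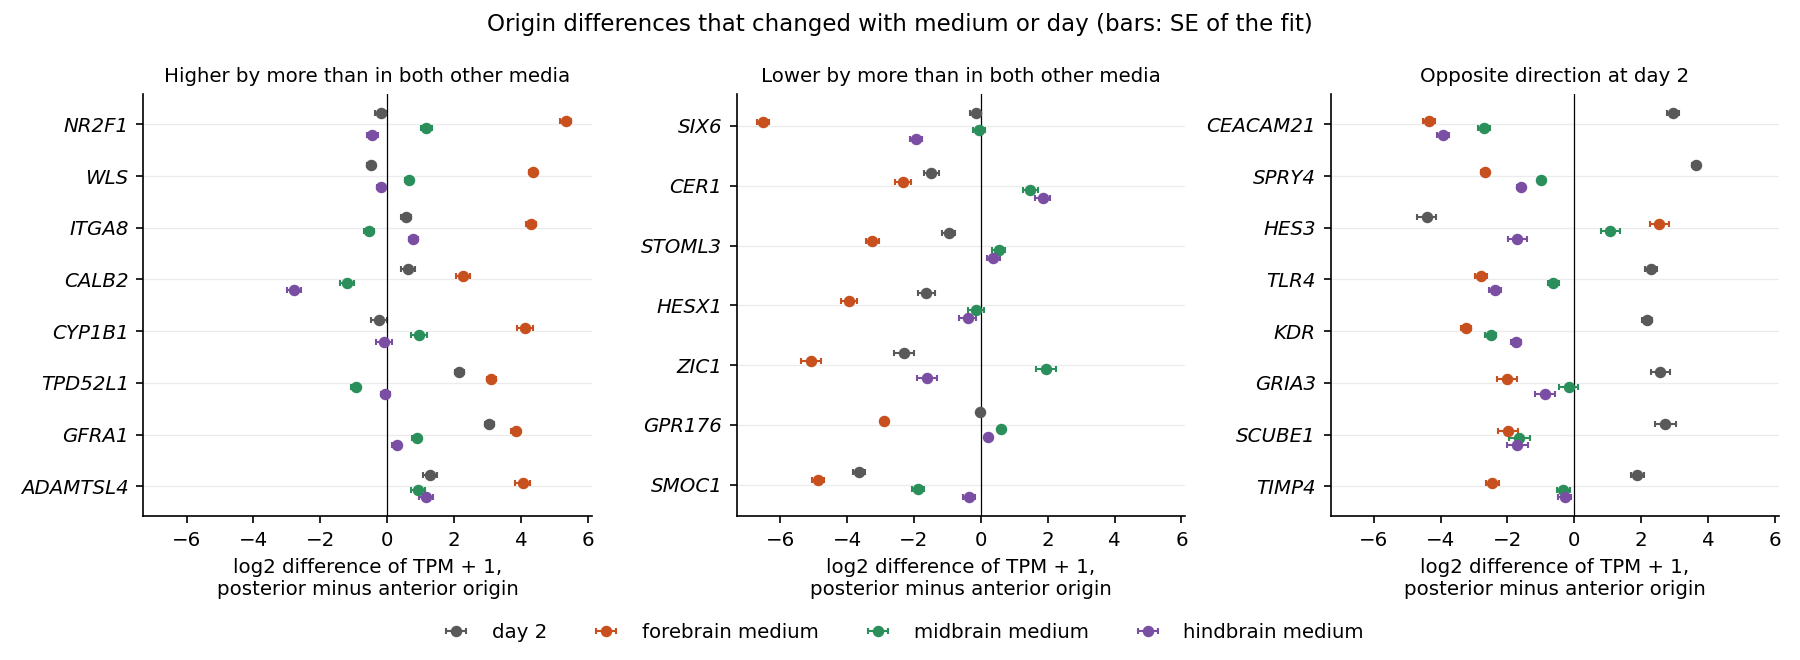
Origin differences on log2(TPM + 1), with bars for the SE of the fit, at day 2 (grey) and in forebrain (orange), midbrain (green) and hindbrain medium (purple), for 8 higher and 7 lower genes with a large excess over both other media and for 8 genes with opposite directions at day 2. In the first panel orange points lie to the right of green and purple ones, in the second to the left, and in the third grey and orange lie on opposite sides of 0. The genes of each panel were picked for the pattern it shows.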

How the data were processed

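RNA of H1 cells and their derivatives was extracted with RNeasy Plus, and messenger RNA was captured by its poly-A tail, primed with random hexamers and sequenced on an Illumina NovaSeq instrument, per the labels' protocols. The authors deposited 1 table of TPM values for 18 libraries in 9 groups of 2; kallisto, Trim Galore and hg38 are named in the submitters' processing notes, without versions. The annotation and strand setting are not given in the sources used here. TPM sums to the same total in each library, holds no depth, and makes a rise in abundant genes lower the values of others; so no count test or counting interval was used. Rows whose name is not a current symbol are counted but not named.

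Values were taken as log2(TPM + 1) (pseudocount 1), which understates differences of low genes, and 14635 genes were kept that reached 1 TPM in 2 or more of the 4 forebrain-medium libraries. limma 3.58.1 (R 4.3.3) with an intensity trend was fitted to all 18 libraries by group, without a replicate block, and p-values were adjusted by Benjamini-Hochberg over all 14635 genes. Interaction terms compared the origin difference in forebrain medium with that at day 2 or in another medium; these share the 4 forebrain-medium libraries with the main comparison. A call needs an adjusted p under 0.05 and a log2 difference of at least 1. The steps were tested on simulated data. The genes named were members of fixed lists, the 15 per direction with the largest called difference, the 8 per direction whose difference most exceeded that in both other media, the 8 with the largest reversal since day 2, and the 5 per direction with the highest level, all carrying a current symbol and, outside the lists, reaching 5 TPM. Some genes of these lists and rules are not reported here. Members and lists were chosen with earlier results of these data known. Alternatives changed the pseudocount, filter, scaling, libraries fitted, call rule, replicate block and each library in turn. Promoter windows and coordinates came from RefSeq (GRCh38.p14), which had a window for 10893 of the tested genes.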

Additional observations from a re-analysis of the deposited data

Results flagged for a closer look

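These results were singled out because the difference between origins in forebrain medium itself differed from that in another medium or at day 2, by an interaction term in limma (adjusted p under 0.05 and at least 1 on the log2 scale). Values are changes in the log2 difference of TPM + 1, and for the media the smaller of the 2 changes is given. Origin and plating density cannot be told apart.

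Among genes whose excess in pNE_T was larger in forebrain medium than in both other media, the change was 4.17 for NR2F1, 3.71 for WLS, 3.47 for CALB2, 3.18 for CYP1B1 and 2.95 for GFRA1, each against midbrain medium. It was 3.51 for ITGA8, 3.17 for TPD52L1 and 2.88 for ADAMTSL4 against hindbrain medium. NR2F1, WLS, ITGA8, CYP1B1 and TPD52L1 shared a pattern: they were low in both aNE_T libraries and higher in cells of anterior origin in the other media. GFRA1 and ADAMTSL4 were instead lower in cells of posterior origin in the other media than in pNE_T.

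Among genes lower in pNE_T by more than in both other media, the change was -4.57 for SIX6, -3.62 for STOML3, -3.54 for HESX1, -3.49 for ZIC1 and -3.12 for GPR176 against hindbrain medium. It was -3.81 for CER1 and -2.99 for SMOC1 against midbrain medium. These 7 had their highest anterior-origin level of the 3 media in forebrain medium.

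Against day 2, the change was -7.30 for CEACAM21, -6.31 for SPRY4, -5.42 for KDR, -5.08 for TLR4, -4.70 for SCUBE1, -4.58 for GRIA3 and -4.34 for TIMP4. HES3 changed the other way, by 6.96.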

How the results depend on the processing

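The 1317 calls between origins became 3650 by adjusted p alone and 514 when the difference was tested against 1. Likewise 1149 calls against day 2 became 2066 and 349, 1143 against midbrain medium became 2056 and 317, and 834 against hindbrain medium became 1912 and 120. The other alternatives kept all 4 counts within 1.5 times, and leaving out each library gave 1259 to 1321, 1028 to 1110, 1001 to 1083 and 691 to 807 calls. Median-ratio scaling turned 642 higher and 675 lower genes into 678 and 625, so which direction holds more genes depends on the scaling. No called difference of a named gene changed direction, and of 183 named genes with a tested difference 60 gained or lost a call in at least 1 alternative, most often under the 2 changed call rules. Replicate numbers are shared between groups, but the labels do not say that they pair cultures, and deviations of same-numbered aNE_T and pNE_T libraries correlated at 0.018. With a replicate block over all libraries 1321 genes were called, and 1385 with a replicate block over the 4 libraries. Limits: each group has 2 cultures of 1 line, read depth is unknown, genes near 1 TPM rest on little signal, and origin and density cannot be told apart.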

Other observations

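The genes here were chosen after their values were seen. IGF2 and DLK1, which had some of the largest differences in opposite directions, are both imprinted, and other imprinted genes were looked up. NNAT, a membrane proteolipid of the developing brain, had 782 and 727 TPM in aNE_T and 156 and 166 TPM in pNE_T (log2 difference -2.22 ± 0.07 SE). GRB10, an adaptor that restrains growth factor receptors, had 115 and 112 TPM in aNE_T and 50.9 and 46.8 TPM in pNE_T (log2 difference -1.20 ± 0.08 SE), and PEG3, a zinc finger gene, had 3.89 and 2.97 TPM in aNE_T and 0.875 and 1.05 TPM in pNE_T (log2 difference -1.17 ± 0.22 SE). PEG10, SGCE, MEST, PLAGL1 and CDKN1C were not called, with differences of 0.08 ± 0.09, -0.18 ± 0.12, -0.79 ± 0.09, -0.61 ± 0.17 and -0.67 ± 0.14.

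Tubulin genes were looked up in the same way, with the reservation that near-identical copies may have shared reads. Beside TUBA1A and TUBB3, which were lower in pNE_T, TUBB2B was higher, with 209.7 and 220.0 TPM in aNE_T and 576 and 584 TPM in pNE_T (log2 difference 1.43 ± 0.06 SE). TUBB, TUBA1B and TUBB4B were not called, with differences of -0.16 ± 0.08, -0.12 ± 0.05 and 0.00 ± 0.05. PODXL, a sialomucin of the apical cell surface, had 39.4 and 41.7 TPM in aNE_T and 218 and 229 TPM in pNE_T (log2 difference 2.44 ± 0.10 SE), and KRT8, the keratin partner of KRT18, had 297 and 289 TPM in aNE_T and 667 and 718 TPM in pNE_T (log2 difference 1.24 ± 0.08 SE).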
